A study of Mus musculus with 6 samples.

Results

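Nuclear-encoded subunits of oxidative phosphorylation (OXPHOS) were taken from the count table as all protein-coding mouse genes whose symbol starts with Ndufa, Ndufb, Ndufc, Ndufs, Ndufv, Uqcr, Cox4, Cox5, Cox6, Cox7, Cox8 or Atp5. The rule used names and gene type alone, and it found 88 of the 32371 genes in the table. By role, 36 of them are subunits of complex I, 8 of complex III, 17 of complex IV and 16 of complex V, 8 are the complex I assembly factors Ndufaf1 to Ndufaf8, and 3 (Cox7a2l, Ndufa4l2 and Atp5s) are related proteins that were kept apart. Complex II, cytochrome c and the complex III subunit Cyc1 carry other names and are described as separate lists. A further 12 genes had a matching name but are not annotated as protein-coding. Of these, Ndufb1-ps was the only one with more than 17 counts over all libraries.

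The respiratory chain sits in the inner mitochondrial membrane. Complex I takes electrons from NADH, complex III passes them from ubiquinol to cytochrome c, complex IV hands them to oxygen, and the proton gradient so formed drives complex V, the ATP synthase. All of these complexes combine a few proteins encoded by mitochondrial DNA with many encoded in the nucleus, so their assembly draws on both genomes. Retinal neurons depend heavily on this pathway: photoreceptor inner segments and the unmyelinated axons of retinal ganglion cells (RGCs) are rich in mitochondria, and inherited complex I defects cause RGC loss.

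The libraries came from adult C57BL/6J mice of both sexes. Control mice received AAV2-GFP and treated mice AAV2-Ezh2-Y726D, which encodes a form of the histone methyltransferase Ezh2 without catalytic activity. Both vectors were injected into the vitreous, the optic nerve was crushed (ONC) in both groups 2 weeks later, and live retinal cells positive for CD90.2, the product of Thy1, were sorted 3 days after ONC. Each group comprised 3 libraries of total RNA. Whether retinas were pooled, and which promoter drove the transgene, are not given in the sources used here, so p-values measure the spread between these libraries, which may be partly technical.

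Total counts per library ran from 9333244 to 23782520. The rRNA gene CT010467.1 accounted for 50.9% of GFP replicate 2, 52.2% of GFP replicate 3 and 2.55% to 16.1% of the other libraries, so these GFP libraries hold the fewest usable counts. The members together received 26200 counts in the shallowest library and 127491 in the deepest for them. Ezh2 measured 22.7, 23.8 and 26.3 CPM in the GFP libraries and 65.2, 65.5 and 65.1 in the Ezh2-Y726D libraries (log2 fold change 1.46, SE 0.061, adjusted p = 3.0e-16, edgeR), so it was higher in all of the latter. CPM values here are counts relative to the library total, scaled by edgeR's trimmed mean of M values (TMM). RNA of cells other than RGCs was present. Rod markers summed to 5772 to 6496 CPM and Müller glia markers to 9368 to 10920 CPM over the libraries, whereas RGC markers summed to 527 to 579 CPM. The source of the rod and glia RNA was not tested.

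The promoters of 5 genes are shown because they belong to the member with the highest level per length in each of complexes I, III, IV and V and to Atp5k, the member with the lowest fold change for which a promoter was given, among those at an unadjusted p under 0.05. They are RefSeq sequences of GRCm38.p6, from 250 bases before to 50 bases after the transcription start, 5′ to 3′ on the strand of the gene. Ndufc2 lies at chr7:97399753-97400052 (+), Uqcrh at chr4:116075021-116075320 (-), Cox8a at chr19:7217567-7217866 (-), Atp5b at chr10:128083057-128083356 (+) and Atp5k at chr5:108434350-108434649 (-). Capitals mark the cores of sites that nuclear respiratory factors are known to use: GCATGCGC (NRF1 half-site), CCGGAAG (ETS site bound by GABP) and AAGATGGC (YY1), searched on both strands.
Ndufc2: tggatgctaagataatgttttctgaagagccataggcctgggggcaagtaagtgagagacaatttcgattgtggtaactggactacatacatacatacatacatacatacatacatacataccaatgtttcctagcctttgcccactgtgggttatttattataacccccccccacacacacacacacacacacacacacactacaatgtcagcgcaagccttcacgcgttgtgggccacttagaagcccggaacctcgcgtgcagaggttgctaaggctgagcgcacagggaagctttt
Uqcrh: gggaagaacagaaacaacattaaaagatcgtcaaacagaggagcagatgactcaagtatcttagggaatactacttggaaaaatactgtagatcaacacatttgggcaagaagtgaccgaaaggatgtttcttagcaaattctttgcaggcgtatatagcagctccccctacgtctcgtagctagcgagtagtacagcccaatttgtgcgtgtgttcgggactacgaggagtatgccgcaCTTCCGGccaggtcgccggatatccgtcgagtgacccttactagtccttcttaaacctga
Cox8a: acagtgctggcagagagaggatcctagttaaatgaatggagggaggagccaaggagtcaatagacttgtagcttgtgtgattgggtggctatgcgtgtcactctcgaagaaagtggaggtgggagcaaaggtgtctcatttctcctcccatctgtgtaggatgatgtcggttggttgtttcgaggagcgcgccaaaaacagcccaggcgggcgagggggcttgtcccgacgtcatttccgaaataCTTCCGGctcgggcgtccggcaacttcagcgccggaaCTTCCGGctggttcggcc
Atp5b: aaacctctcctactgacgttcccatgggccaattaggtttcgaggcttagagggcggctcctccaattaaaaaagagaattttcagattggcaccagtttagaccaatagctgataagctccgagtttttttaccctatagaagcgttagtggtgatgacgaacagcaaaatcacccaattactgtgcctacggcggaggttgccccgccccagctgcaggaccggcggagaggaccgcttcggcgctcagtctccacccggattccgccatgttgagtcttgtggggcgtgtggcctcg
Atp5k: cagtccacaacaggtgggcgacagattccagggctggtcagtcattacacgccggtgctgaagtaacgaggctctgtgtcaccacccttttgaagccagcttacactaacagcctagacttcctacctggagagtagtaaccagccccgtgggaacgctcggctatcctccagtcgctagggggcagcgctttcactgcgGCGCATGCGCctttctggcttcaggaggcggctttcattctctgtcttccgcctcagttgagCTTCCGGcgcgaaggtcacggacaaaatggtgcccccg

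In Uqcrh an ETS core began 10 bases before the start, and in Cox8a such cores began 5 bases before and 32 bases after it. The Atp5k promoter held overlapping NRF1 half-sites beginning 50 and 48 bases before the start, on opposite strands, and an ETS core 12 bases after it. Neither Ndufc2 nor Atp5b held any of these letters in the window. By symbol, 71 of the 88 members matched a RefSeq promoter, with 76 promoters among them. Over these 76, the NRF1 core was found in 14.5%, the ETS core in 21.1% and the YY1 core in 13.2%, relative to 2.71%, 8.86% and 2.75% of all 32851 promoters of the same length. Any of these cores was present in 40.8% of the member promoters and in 13.3% of all. Of the 10 promoters with a YY1 core, 7 were among the 34 complex I promoters, 2 among 16 of complex V, 1 among 7 of the assembly factors and none among the 13 of complex IV, 5 of complex III and 1 of the other proteins. The member promoters were also richer in CpG, with a median of 19 CpG dinucleotides versus 7 in all promoters, and the cores of NRF1 and GABP contain CpG, so base composition moves with these shares and its part in them was not tested.

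OXPHOS transcripts were abundant in the sorted cells. On the per-length scale (RPKM, the TMM-scaled CPM divided by the exonic length in kilobases), the median of the 86 tested members was 21.3, which lies at the 92.1st percentile of all genes tested, whose median was 3.72. The levels differed by complex. Over the tested members, the median was 42.1 RPKM for complex III, 36.8 for complex IV, 24.4 for complex V and 21.0 for complex I, but 5.67 for the complex I assembly factors, which help to build the enzyme and are not part of it. The exonic length counts every annotated exon, so it understates the level of genes with long rare transcripts, such as Atp5l with 6443 bases.

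The catalytic core of the ATP synthase led the list. Atp5b, the beta subunit that carries the active site (on chromosome 10, 128083273 to 128090391), measured 146, 143 and 138 RPKM in the GFP libraries and 144, 146 and 137 in the Ezh2-Y726D libraries. Its alpha partner Atp5a1 measured 145, 138 and 143 RPKM in GFP and 136, 143 and 138 in Ezh2-Y726D. The libraries of both groups interleave for each gene, and the ratio of Atp5a1 to Atp5b stayed between 0.94 and 1.03 over the 6 libraries. The other F1 subunits were lower, with means of 65.1 RPKM for the gamma subunit Atp5c1, 38.3 for delta (Atp5d) and 12.2 for epsilon (Atp5e). In the enzyme alpha and beta are present in several copies and the other F1 subunits in a single copy. Whether the transcript levels follow these copies was not tested, and the levels depend on the exonic lengths used.

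Cytochrome c oxidase held the next highest members. Cox8a, a small membrane subunit of complex IV, measured 143, 136 and 135 RPKM in GFP and 142, 141 and 145 in Ezh2-Y726D, overlapping Atp5b and Atp5a1. Cox4i1, the subunit through which ATP regulates the enzyme, averaged 93.4 RPKM, Cox6b1 86.6 and Cox6a1 67.2. In complex III the hinge protein Uqcrh had the highest level, with 53.5, 52.2 and 47.8 RPKM in GFP and 50.8, 50.3 and 52.0 in Ezh2-Y726D, followed by Uqcr11 with a mean of 47.5. In complex I, Ndufc2 led with 56.5, 49.0 and 49.0 RPKM in GFP and 57.3, 56.4 and 54.3 in Ezh2-Y726D. Ndufa13 followed with a mean of 47.6, but it shares 29.98% of its exonic bases with other genes, so its count is uncertain. When the 86 tested members were put in order of mean RPKM, 10 of the 85 neighbouring pairs stood in the same order in every library, and the order of the other 75 changed between libraries. For 6 pairs, among them Cox8a above Cox4i1, Cox6b1 above Cox6a1 and Atp5c1 above Ndufc2, the ranges over the 6 libraries were also apart.

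**Figure D1:**
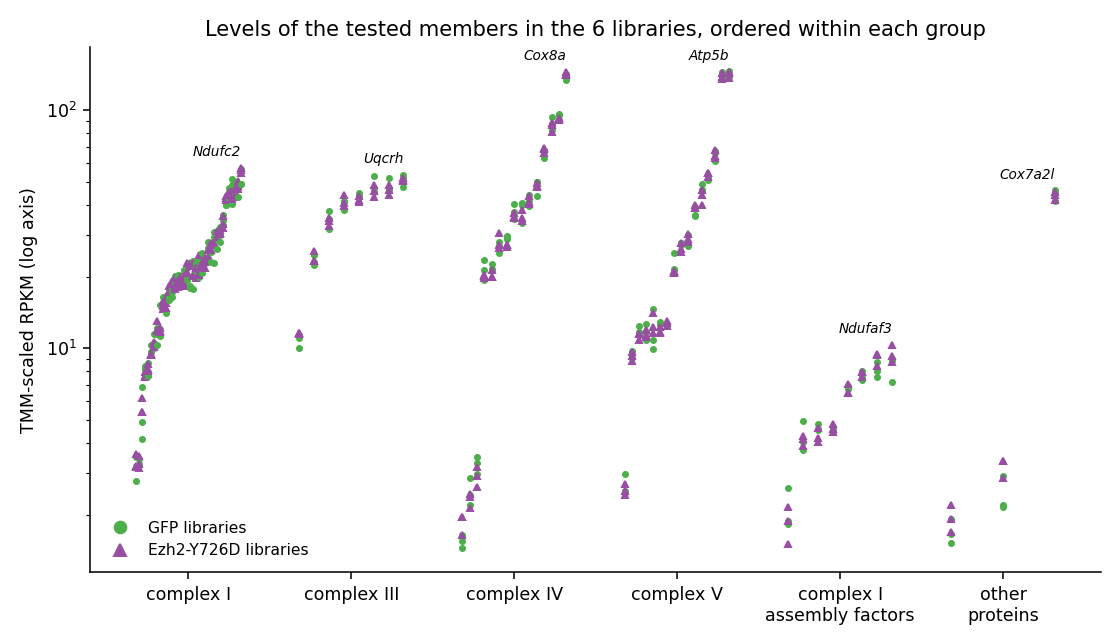
TMM-scaled RPKM (log axis) of the 86 tested members in each library, ordered by mean within each group (green circles, 3 GFP libraries; purple triangles, 3 Ezh2-Y726D libraries). Atp5b, Atp5a1 and Cox8a stand near 140 RPKM (means 142.4, 140.3 and 140.2), the complex I assembly factors have means of 1.97 to 8.90, and the symbols of both groups lie on top of each other for nearly every gene.

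The main comparison asked whether Ezh2-Y726D changed these transcripts after ONC. No member passed. With edgeR's quasi-likelihood test, 0 of the 86 tested members were higher and 0 were lower at an adjusted p under 0.05, whereas 13.9% of the 18138 genes tested were higher and 13.6% were lower (27.5% in both directions). As DEGs, with a fold change over 1.5 added, 0 members were called versus 8.02% of all genes. At an unadjusted p under 0.05, 3 of 86 members were found versus 36.2% of all genes, and DESeq2 called 0 members. That count of 3 rested on single libraries, with 0 without Ezh2-Y726D replicate 3, 1 without Ezh2-Y726D replicate 1 or GFP replicate 3 and 6 without GFP replicate 1. Among the 4392 genes whose mean log2 CPM lay between the quartiles of the members (4.39 and 5.87), 30.4% were called, so the share of calls was no lower among genes of similar level.

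This count of 0 depended in part on single libraries. Without GFP replicate 1, Atp5s and Ndufa11 were called higher (log2 fold change 0.56 and 0.32). Without GFP replicate 2, Atp5mpl and Ndufa2 were called lower (-0.21 and -0.20), and without GFP replicate 3 Atp5mpl was (-0.20), but without GFP replicate 1 Atp5mpl stood at -0.036 (adjusted p = 0.84, edgeR). Without both of the rRNA-rich GFP libraries, where the remaining GFP library is assumed to vary like the others, Atp5mpl and Ndufa2 were called lower (-0.27 and -0.23).

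All 86 log2 fold changes lay between -0.17 (Atp5mpl) and 0.29 (Atp5s), with a median of -0.018 and quartiles of -0.059 and 0.042. Without GFP replicate 1 this range widened to -0.29 and 0.56, and without both rRNA-rich GFP libraries its lower end was -0.27. With a correction for exonic length the median was 0.016, so its sign depends on the processing. Of all genes tested, 36.1% lay outside the range of the members, and their quartiles were -0.15 and 0.15 around a median of 0.0018. The 95% interval of the fold change lay wholly within 1.5-fold in either direction for 84 members (97.7%), versus 65.9% of all genes. It lay within 1.2-fold for 68 members (79.1%), versus 33.1% of all genes. Between the members' quartiles of level it did so for 38 of 42 members (90.5%) and for 61.4% of all genes there. The intervals of the other 2 members, Cox7a1 and Cox6a2, reached past 1.5-fold; both had low counts, 5 to 31 and 9 to 47 per library.

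**Figure D2:**
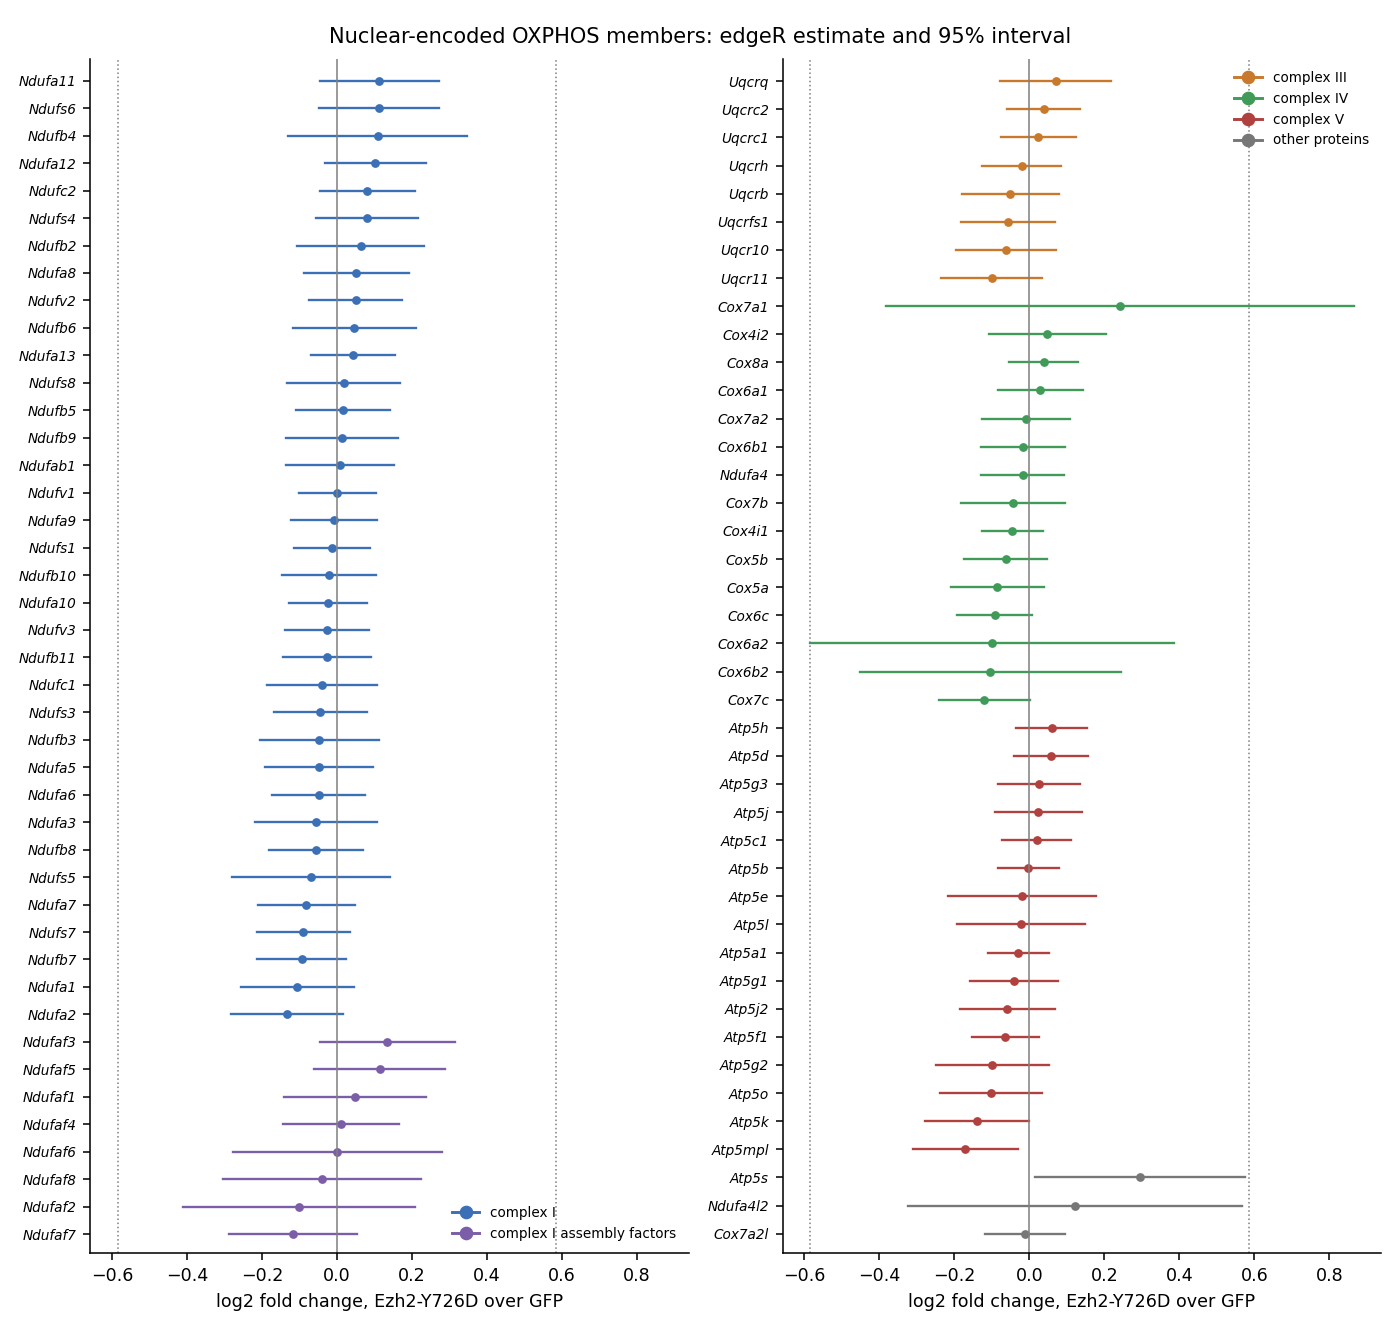
Log2 fold change of the tested members, 1 complex I subunit left out (Ezh2-Y726D over GFP, n = 3 libraries each) with its 95% interval from edgeR; the dotted lines mark 1.5-fold. All estimates lie between -0.17 and 0.29, and of the intervals drawn only those of Cox7a1 and Cox6a2 pass the dotted lines.

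In complex I, 17 of 36 estimates were positive and 19 negative, with a median of -0.010 and a range from -0.13 (Ndufa2) to 0.11 (Ndufa11). The 7 core subunits, which together carry the flavin and iron-sulphur clusters, held 4 positive and 3 negative estimates, and all of their intervals lay within 1.2-fold. The 29 accessory subunits ranged from -0.13 to 0.11. Ndufc2 measured 42.6, 37.0 and 36.9 CPM in GFP and 43.2, 42.5 and 41.0 in Ezh2-Y726D, and Ndufa13, also known as a cell death regulator, 61.6, 54.0 and 59.1 CPM in GFP and 60.5, 63.4 and 58.6 in Ezh2-Y726D. For both genes GFP replicate 1 lay among the Ezh2-Y726D libraries (adjusted p = 0.38 and 0.63, edgeR). The 8 assembly factors ranged from -0.12 (Ndufaf7) to 0.13 (Ndufaf3), with larger standard errors (median 0.090 versus 0.064 for complex I subunits) at their lower counts. Ndufaf3 measured 16.3, 16.1 and 13.1 CPM in GFP and 18.8, 15.9 and 16.8 in Ezh2-Y726D, and Ndufaf5, a methyltransferase-like factor, 15.7, 14.4 and 13.6 CPM in GFP and 16.8, 17.0 and 15.1 in Ezh2-Y726D. Both sets overlap between the groups.

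In complex III, 3 of 8 estimates were positive and 5 negative, from -0.10 (Uqcr11) to 0.071 (Uqcrq). Uqcrh measured 66.1, 64.5 and 59.1 CPM in GFP and 62.8, 62.3 and 64.3 in Ezh2-Y726D. Uqcr11 measured 33.4, 30.3 and 29.7 CPM in GFP and 31.2, 29.8 and 28.2 in Ezh2-Y726D. Both overlapped between the groups. Uqcrc1 and Uqcrc2, the large core proteins that face the matrix, had log2 fold changes of 0.024 and 0.038, and the ratio of their RPKM (Uqcrc2 over Uqcrc1) stayed between 1.67 and 1.81 in the 6 libraries. Uqcrc2 shares 19.75% of its exonic bases with other genes, so its count and this ratio are uncertain. All 8 intervals lay within 1.2-fold.

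In complex IV, 4 of the 15 tested members had positive and 11 negative estimates, with a median of -0.044. The 11 common isoforms ranged from -0.12 (Cox7c) to 0.038 (Cox8a), and all of their intervals lay within 1.2-fold. Cox4i1 measured 150, 142 and 149 CPM in GFP and 143, 144 and 142 in Ezh2-Y726D (log2 fold change -0.045, 95% interval -0.13 to 0.036). Cox8a measured 88.4, 84.4 and 83.3 CPM in GFP and 87.8, 87.0 and 90.0 in Ezh2-Y726D. The summed CPM of the 17 members was 735, 734 and 729 in GFP and 710, 731 and 712 in Ezh2-Y726D. Ezh2-Y726D replicate 2 lay within the GFP range and the others just under it.

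In complex V, 5 of 16 estimates were positive and 11 negative, with a median of -0.026. The 5 estimates of the F1 head lay between -0.030 and 0.059. Atp5b measured 619, 606 and 586 CPM in GFP and 611, 617 and 581 in Ezh2-Y726D, for a log2 fold change of -0.0025 with a 95% interval from -0.083 to 0.078. Atp5a1 measured 454, 432 and 447 CPM in GFP and 425, 449 and 433 in Ezh2-Y726D (log2 fold change -0.030, interval -0.11 to 0.051). The 4 peripheral stalk subunits, which hold the head still, ranged from -0.10 to 0.059. The 4 accessory subunits of the membrane part were all negative, from -0.17 to -0.022. Of these, Atp5mpl, a small membrane protein of the enzyme, measured 30.8, 26.0 and 26.2 CPM in GFP and 25.7, 25.5 and 25.2 in Ezh2-Y726D. The groups do not overlap, but GFP replicates 2 and 3 lay within 1 CPM of the Ezh2-Y726D libraries (log2 fold change -0.17, SE 0.069, adjusted p = 0.065, edgeR; -0.036 without GFP replicate 1). Atp5k, the e subunit found where ATP synthases pair up, measured 30.2, 28.5 and 28.5 CPM in GFP and 24.7, 28.5 and 27.1 in Ezh2-Y726D, where replicate 2 reached the GFP libraries (-0.14, SE 0.067, adjusted p = 0.13).

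Atp5mpl, Atp5k and Atp5s were the 3 members at an unadjusted p under 0.05, and they were picked with their values in view. Atp5s, a factor related to the coupling of the enzyme, measured 5.92, 4.38 and 4.47 CPM in GFP and 6.83, 5.82 and 6.84 in Ezh2-Y726D. GFP replicate 1 lay above Ezh2-Y726D replicate 2, so the groups overlap (log2 fold change 0.29, SE 0.14, adjusted p = 0.12, edgeR). Counting members whose groups do not overlap gave 3 higher (Uqcrq, Ndufs6 and Cox7a1) and 5 lower (Atp5mpl, Cox7c, Atp5o, Ndufb7 and Ndufb8) of 86, against 19.7% and 18.9% of all genes tested. These 8 were likewise named with their values in view. Cox7c, a small complex IV subunit, measured 33.5, 32.5 and 33.3 CPM in GFP and 30.2, 30.6 and 30.9 in Ezh2-Y726D (-0.12, SE 0.059, adjusted p = 0.15), and it has 3 near-identical copies in the genome, so its count is uncertain. Atp5o shares 47.9% of its exonic bases with other genes, and its count is uncertain too.

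Isoform shares moved by a few percentage points at most. On the per-length scale, the tissue-restricted Cox4i2 made up 22.5%, 21.6% and 21.9% of the sum of Cox4i1 and Cox4i2 in GFP and 24.98%, 22.6% and 22.5% in Ezh2-Y726D, where replicate 1 was highest. Cox4i2 itself measured 22.1, 19.8 and 21.2 CPM in GFP and 24.1, 21.4 and 20.9 in Ezh2-Y726D (log2 fold change 0.048, interval -0.11 to 0.20), and the groups overlap. Cox4i2 and Ndufa4l2 are known to be enriched in pericytes. Of the 5 pericyte markers, 4 were lower at an adjusted p under 0.05 (edgeR), and their summed level fell from 193 to 204 CPM in GFP to 153 to 166 CPM in Ezh2-Y726D; the part of these cells in the isoform shares was not tested. Ndufa4l2 measured 2.10, 1.67 and 1.82 CPM in GFP and 2.40, 1.86 and 2.10 in Ezh2-Y726D, and made up 3.92% ± 0.32 (SD, n = 3) of the sum with Ndufa4 in GFP and 4.44% ± 0.70 (SD, n = 3) in Ezh2-Y726D.

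The isoforms known from heart and skeletal muscle were minor. Cox6a2 made up 3.62% ± 0.39 (SD, n = 3) of its pair with Cox6a1 in GFP and 3.29% ± 0.15 in Ezh2-Y726D. Cox7a1 made up 3.13% ± 0.30 of its pair with Cox7a2 in GFP and 3.70% ± 0.41 in Ezh2-Y726D. Cox6b2, the testis isoform, made up 3.57% ± 0.24 of its pair with Cox6b1 in GFP and 3.29% ± 0.37 in Ezh2-Y726D. Cox8b, the muscle partner of Cox8a, had 5, 0 and 0 counts in GFP and 0, 2 and 4 in Ezh2-Y726D, and Cox7b2, the testis partner of Cox7b, had 0 in all libraries but Ezh2-Y726D replicate 1, which had 2. These 2 members did not pass the filter on low counts and were not tested. For Cox7a2, Cox6a1, Cox6b1, Cox7b, Ndufa4 and the supercomplex factor Cox7a2l, the log2 fold changes lay between -0.044 and 0.030.

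The c subunit of ATP synthase, which forms the rotating ring, is made from several genes that encode the same mature protein. Atp5g3 made up 56.96% ± 0.53 (SD, n = 3) of their summed RPKM in GFP and 58.6% ± 1.1 in Ezh2-Y726D, Atp5g2 23.98% ± 0.15 and 22.8% ± 0.75, and Atp5g1 19.1% ± 0.38 and 18.6% ± 0.41. Shares of Atp5g2 did not overlap between the groups (23.8% to 24.1% in GFP, 22.3% to 23.6% in Ezh2-Y726D), whereas those of Atp5g3 and Atp5g1 did; the shares were not tested. Atp5g3 measured 65.5, 60.2 and 58.6 CPM in GFP and 66.0, 61.3 and 63.1 in Ezh2-Y726D, and the groups overlap. The log2 fold changes were 0.025 for Atp5g3, -0.098 for Atp5g2 and -0.040 for Atp5g1, and none passed the test (adjusted p = 0.79, 0.37 and 0.68, edgeR). Atp5g1 and Atp5g2 have near-identical copies in the genome, so their counts are uncertain.

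**Figure D3:**
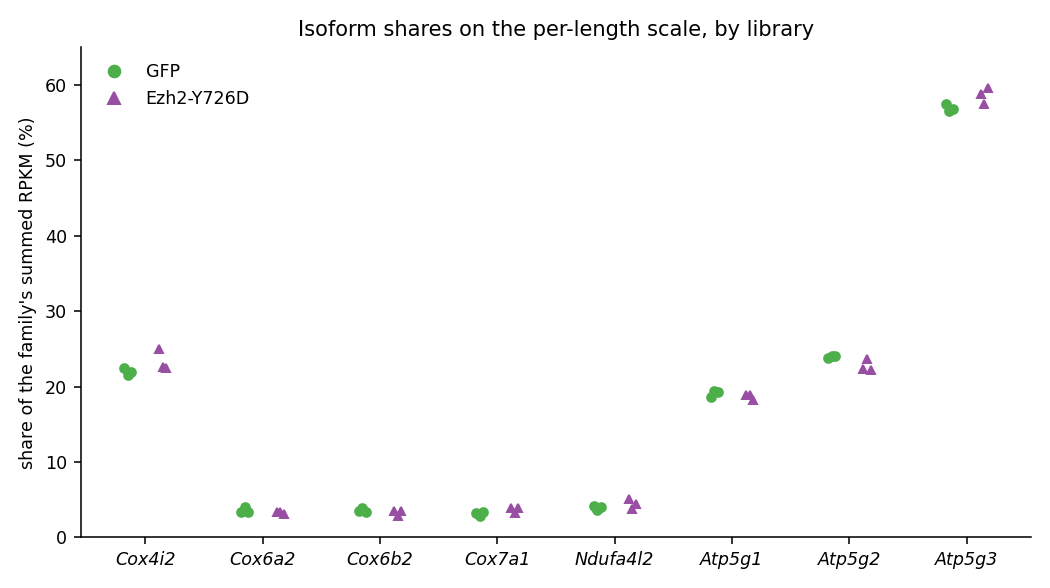
Share of each isoform in the summed RPKM of its family, in percent, with 1 symbol per library (green circles, GFP; purple triangles, Ezh2-Y726D). Cox4i2 takes 21.6% to 24.98% of its pair, Cox6a2, Cox6b2, Cox7a1 and Ndufa4l2 2.80% to 5.14% of theirs, and Atp5g3 more than Atp5g1 and Atp5g2 in every library.

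Summed over all 88 members, OXPHOS transcripts reached 4466, 4348 and 4340 CPM in the GFP libraries and 4335, 4465 and 4307 CPM in the Ezh2-Y726D libraries. The means were 4385 ± 70.4 and 4369 ± 84.4 (SD, n = 3), a ratio of 0.996, and the libraries of both groups interleave. As a share of all counts other than the rRNA gene, which uses no TMM factor, the members took 0.610%, 0.588% and 0.587% in GFP and 0.582%, 0.597% and 0.578% in Ezh2-Y726D. The sums by complex also overlapped between the groups, at 1285 to 1322 CPM in GFP and 1287 to 1336 in Ezh2-Y726D for complex I, 414 to 445 and 423 to 445 for complex III, and 1732 to 1795 and 1714 to 1785 for complex V.

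Other genes of energy metabolism are given beside the members against the same 27.5% of all genes. Of the 17 glycolysis genes, 11 were higher and 1 was lower (median log2 fold change 0.16), and their summed level was 8191 to 8475 CPM in GFP and 8761 to 9150 in Ezh2-Y726D, with no overlap. Without both rRNA-rich GFP libraries 7 were higher and 1 lower. Ldhb, a lactate dehydrogenase subunit, rose from 95.5, 94.8 and 91.1 CPM to 121, 130 and 118 (log2 fold change 0.38, SE 0.046, adjusted p = 1.5e-07, edgeR). Hk2, an inducible hexokinase, fell from 116, 126 and 132 CPM to 106, 92.9 and 105 (-0.28, SE 0.051, adjusted p = 9.8e-05). Of the 18 genes of the TCA cycle and pyruvate dehydrogenase, 1 was higher and 0 were lower (median 0.0026), and without single libraries 0 to 2 were higher (0 without GFP replicate 1, Ezh2-Y726D replicate 2 or replicate 3). Of the 4 complex II subunits, 1 was lower, the membrane anchor Sdhd, at 38.7, 37.2 and 38.6 CPM in GFP and 31.5, 33.8 and 32.2 in Ezh2-Y726D (-0.24, SE 0.059, adjusted p = 0.0024). Both Cycs (cytochrome c) and Cyc1 were not called.

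The chain also holds 13 subunits encoded by mitochondrial DNA. Of these, 8 were tested, 4 were higher (mt-Nd1, mt-Nd2, mt-Nd4 and mt-Cytb) and 0 were lower, with a median of 0.20. The largest called rise was mt-Nd4, a complex I core subunit (log2 fold change 0.25, SE 0.070, adjusted p = 0.0084, edgeR). The calls were not stable: only mt-Cytb was called without GFP replicate 1 or without Ezh2-Y726D replicate 2 and only mt-Nd1 in DESeq2, and the correction for GC content gave 2 higher and 1 lower. The median was 0.0998 without GFP replicate 1 and 0.39 without both rRNA-rich GFP libraries. The summed level, 4804 to 5220 CPM in GFP and 5165 to 5671 in Ezh2-Y726D, overlaps between the groups. This sum is weighted heavily by mt-Co1, which was not called. mt-Co2, mt-Co3, mt-Nd3, mt-Nd4l, mt-Atp6 and mt-Atp8 had 28 counts or fewer in every library, while mt-Co1 had 20139 to 100814, so no comparison of subunits within the mitochondrial set was made. The difference between nuclear and mitochondrial subunits was not tested.

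Among genes that make or regulate the chain, the 40 tested assembly factors of other complexes and further factors of complex I held 2 higher and 0 lower (median 0.0012; 1 higher without GFP replicate 2, Ezh2-Y726D replicate 1 or replicate 2, and 1 lower without GFP replicate 3 or Ezh2-Y726D replicate 2), and among those called Ttc19, a complex III factor, rose most (0.30, SE 0.060, adjusted p = 2.4e-04, edgeR). Of 16 regulators of mitochondrial biogenesis, 1 was higher and 1 was lower. Ppargc1a, a coactivator of respiratory genes, rose from 18.0, 21.1 and 21.2 CPM to 23.6, 24.3 and 25.1 (0.33, SE 0.075, adjusted p = 0.0011), with no overlap, but was not called without GFP replicate 1. Gabpb2, which encodes a beta subunit of GABP, fell from 49.95, 57.2 and 51.5 CPM to 44.1, 45.6 and 48.1 (-0.19, SE 0.059, adjusted p = 0.018), also without overlap, and was not called without GFP replicate 2 or Ezh2-Y726D replicate 2. Of 6 carriers and porins 2 were higher and 1 lower, and of 8 mitochondrial antioxidant enzymes 1 was higher and 2 were lower. Without GFP replicate 1 or Ezh2-Y726D replicate 2 no gene of these last 2 lists was called higher. Without GFP replicate 3 or Ezh2-Y726D replicate 3, 1 carrier and 0 antioxidant enzymes were called higher, and without GFP replicate 1 or Ezh2-Y726D replicate 3 only 1 antioxidant enzyme was lower. The 77 mitochondrial ribosomal protein genes held 0 higher and 2 lower (median -0.072), whereas of the 80 tested cytosolic ribosomal protein genes 0 were higher and 71 lower (median -0.21). Without single libraries, 1 to 4 and 58 to 72 were lower, the mitochondrial count being 1 without GFP replicate 1 or Ezh2-Y726D replicate 2 and 4 without GFP replicate 2. Like the members, ribosomal protein genes are short and many have near-identical copies.

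**Figure D4:**
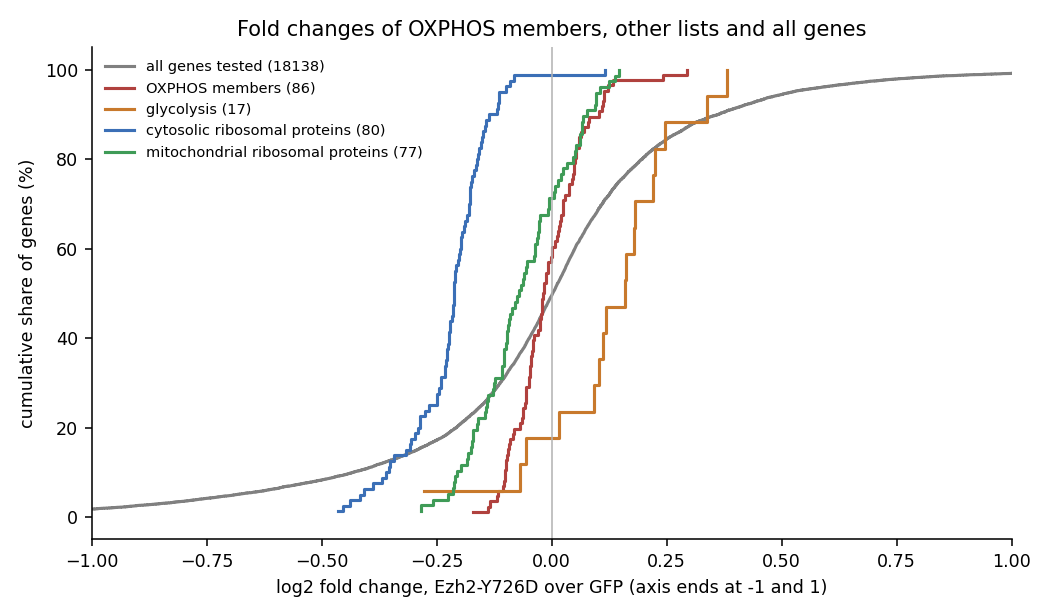
Cumulative share of genes (%) by log2 fold change (Ezh2-Y726D over GFP) for all genes tested, the OXPHOS members and other gene lists, with the number of genes in brackets; the axis ends at -1 and 1. The members rise steeply around their median of -0.018, with the cytosolic ribosomal proteins to the left (median -0.21) and glycolysis to the right (median 0.16).

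**Figure D5:**
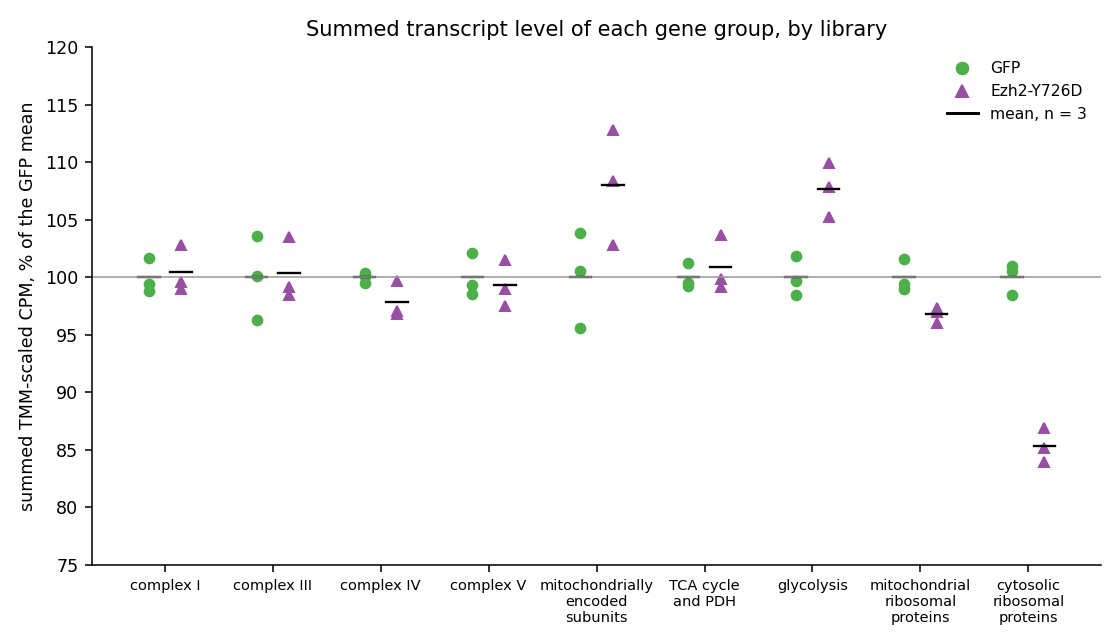
Summed TMM-scaled CPM of each gene group in every library, as a percentage of the mean of the 3 GFP libraries (green circles, GFP; purple triangles, Ezh2-Y726D; black bars, means; the axis starts at 75%). The groups overlap for complexes I, III, IV and V, while the glycolysis sums lie higher and the sums of both kinds of ribosomal proteins lower in all Ezh2-Y726D libraries.

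Markers of other cell types moved between the groups. In Ezh2-Y726D, 8 of 8 tested amacrine cell markers were higher, and 8 of 9 bipolar, 8 of 9 cone, 9 of 11 microglia and phagocyte and 7 of 7 T cell markers were lower; 1 bipolar and 1 microglia marker were higher, the latter not without GFP replicate 1, Ezh2-Y726D replicate 2 or Ezh2-Y726D replicate 3. Summed levels did not overlap for any of these lists, from 1033 to 1110 CPM to 1604 to 1659 for amacrine cells and from 461 to 485 CPM to 298 to 315 for cones. Nor did the sums overlap for rods (5772 to 5969 CPM in GFP, 6284 to 6496 in Ezh2-Y726D) and Müller glia (10340 to 10920 and 9368 to 9709). Of 9 rod markers 3 were higher and 1 lower (1 higher without Ezh2-Y726D replicate 3), and of 8 Müller glia markers 2 were higher and 3 lower (1 higher without GFP replicate 2). Of 6 endothelial markers 2 were lower. This count was 0 without Ezh2-Y726D replicate 2, and 1 without Ezh2-Y726D replicate 3, GFP replicate 1 or GFP replicate 3. Without GFP replicate 3, 1 endothelial marker was also higher. Of 11 RGC markers 2 were higher, Thy1 among them, and 1 was lower. Without GFP replicate 1 no RGC marker was called higher, without Ezh2-Y726D replicate 2 or GFP replicate 3 1 was higher and 2 were lower, and without Ezh2-Y726D replicate 1 2 were lower. When scaled by library totals, no marker of any of these lists was called. Every marker list held tested genes. Fewer cells of a type and less RNA per cell cannot be told apart in these samples, and the part of cell mix in the members' levels was not tested.

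Ndufb1-ps, annotated as a non-coding RNA although the name is that of a complex I subunit, is no member and was picked with its values in view. It measured 21.6, 25.6 and 24.7 CPM in GFP and 19.0, 20.6 and 19.9 in Ezh2-Y726D, with no overlap (log2 fold change -0.23, SE 0.076, adjusted p = 0.024, edgeR).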

How the data were processed

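RNA of CD90.2-positive sorted retinal cells was sequenced in 6 libraries, 3 per group, with a stranded total RNA kit. The authors deposited whole-number read counts per gene without normalization. The submitters' processing notes name STAR 2.7.0d and GRCm38; the counting tool, the annotation and the use of strand are not given in the sources used here. Symbols and coordinates came from a gene name table and GENCODE vM21 on GRCm38, which may not be the authors' annotation. From the deposited counts, edgeR 4.0.16 in R 4.3.3 (TMM, filterByExpr with 10 counts and a total of 15, quasi-likelihood test, Benjamini-Hochberg adjustment) was fitted to all 18138 genes that passed, tested beforehand on simulated data. The simulated libraries were all given the same rRNA share, so the unequal shares of the real libraries were not covered. Standard errors were taken from the estimate and its F statistic (their ratio, F under a root). Near-identical copies share 95% of bases over 80% of the coding sequence (21 members), and 20 members overlap other exons by 5% or more. The members, the gene and marker lists and the tests were chosen with earlier results of these data known. Named members are the 2 with the highest RPKM per group, those called with the largest changes (there were none), the isoform families, members that failed the filter and, from other lists, the largest called rise and fall; other names were picked with their values in view. Alternatives were RLE size factors, library totals with and without CT010467.1, TMM without CT010467.1, DESeq2 1.42.0, other filters, a replicate block, length and GC corrections (lowess, span 0.3), thinning, and leaving out libraries or uncertain members. Without CT010467.1 the libraries held 4460732 to 22024582 counts, which limits the precision. Some items are not reported here.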

Additional observations from a re-analysis of the deposited data

How the results depend on the processing

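No member was called a DEG under any alternative run. The counts of members called stayed at 0 higher and 0 lower under RLE size factors, TMM without CT010467.1, DESeq2, either filter and thinning. They also stayed so without members with exonic overlap, and without members with roles outside the complexes. The same held when members with either overlap or near-identical copies were left out, a run that was not planned. Under all of these runs the median log2 fold change, -0.018 as reported, ran from -0.022 to -0.0059, a move smaller than the SD between libraries of 0.024. The GC correction called 2 members lower (Atp5f1 and Cox7c), library totals without CT010467.1 called 1 lower (Atp5mpl), and leaving out both rRNA-rich GFP libraries, an alternative chosen after seeing the data, called 2 lower. The length correction moved the median to 0.016. Library totals moved it to 0.48, along with the median of all genes to 0.49, so that relative to all genes the members stood at -0.0078; 0 members were called and 0.358% of all genes. On that scaling no gene of the other energy, ribosomal or cell type marker lists passed, and relative to all genes glycolysis stood at 0.17 and cytosolic ribosomal proteins at -0.20. Leaving out single libraries gave 0 to 2 members higher, 0 to 2 lower and medians from -0.023 to -0.0067; the causes were not tested.

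Same-numbered libraries hardly deviated together (correlations of 0.072, 0.034 and 0.024, none over 0.1), although each library correlated best with its own number. This is a hint from the data and not from the design, and whether the numbers mark pairs was not tested. With the replicate block, 0 members were higher and 0 lower, with a median of -0.020, 5 at an unadjusted p under 0.05 and 28.8% of all genes called. With the replicate block and the length correction together, 3 members were higher (Ndufc2, Atp5s and Cox8a), 0 were lower and the median was 0.017. Depth limits Cox7a1, Cox6a2 and the 2 untested members most; DESeq2 found 0 members at an unadjusted p under 0.05 and called 20.9% of all genes.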
